A study of Mus musculus with 6 samples.

Results

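The genes of the proteasome were followed in naive CD4+ T cells (TN) of the spleen, all from C57BL6/J mice of the WT genotype, comparing 3 libraries from mice given rapamycin in vivo with 3 from mice given no treatment. Members were taken by symbol, as protein-coding genes whose name starts with Psma, Psmb, Psmc, Psmd, Psme, Psmf or Psmg, plus Pomp. The rule found 51 of 55487 annotated genes, among 21974 that code for protein. It used names alone, without measured values. One of the 51, Psmc3ip, encodes a meiotic recombination factor that shares only the start of its symbol with the ATPase Psmc3, and it is described apart from the roles below, although counts over all members include it. The sources used here do not give the dose, route or length of treatment or the age of the mice, and they do not say whether the 3 libraries of a group came from separate mice. The p-values therefore rest on library-to-library spread, part or all of which may be technical.

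The proteasome is the protease that degrades proteins tagged with ubiquitin. Its 20S core is a barrel of outer alpha rings and inner beta rings, and 3 beta subunits of each inner ring cut protein: Psmb5 with chymotrypsin-like, Psmb6 with caspase-like and Psmb7 with trypsin-like activity. The 19S regulator caps the barrel, recognises ubiquitin, unfolds the substrate with a ring of ATPases and feeds it in. In lymphocytes, and in other cells after interferon gamma, Psmb8, Psmb9 and Psmb10 replace Psmb5, Psmb6 and Psmb7 in newly built cores, which form the immunoproteasome. Together with the interferon-inducible PA28 cap, encoded by Psme1 and Psme2, it supplies peptides for major histocompatibility complex (MHC) class I. Rapamycin inhibits the kinase complex mTORC1, which has been reported in cell lines to raise proteasome gene expression through the transcription factor NRF1, encoded by Nfe2l1.

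The start regions of the paired catalytic genes are shown first because these pairs carry the comparison of the constitutive with the immune form, and because interferon- and stress-responsive factors are known to bind near such starts. Each window is from RefSeq on GRCm38.p6, the mm10 assembly, and runs from 250 bases before to 50 bases after an annotated start, in the direction of the gene. Capitals mark a match to TTCNNNGAA, the letters of an interferon gamma-activated site, in Psmb8, and to TGACNNNGC, the letters of an antioxidant response element for the NRF factors, in Psmb5 and Psmb6. The windows are chr17:34197945-34198244, plus strand, for Psmb8, chr17:34187281-34187580, minus strand, for Psmb9, chr14:54617946-54618245, minus strand, for Psmb5, and chr11:70525107-70525406, plus strand, for Psmb6.
Psmb8: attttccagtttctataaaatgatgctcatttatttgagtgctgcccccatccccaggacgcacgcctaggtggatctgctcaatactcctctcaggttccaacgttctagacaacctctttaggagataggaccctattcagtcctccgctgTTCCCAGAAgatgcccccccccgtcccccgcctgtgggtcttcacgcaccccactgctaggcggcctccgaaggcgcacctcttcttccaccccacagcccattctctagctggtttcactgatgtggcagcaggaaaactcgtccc
Psmb9: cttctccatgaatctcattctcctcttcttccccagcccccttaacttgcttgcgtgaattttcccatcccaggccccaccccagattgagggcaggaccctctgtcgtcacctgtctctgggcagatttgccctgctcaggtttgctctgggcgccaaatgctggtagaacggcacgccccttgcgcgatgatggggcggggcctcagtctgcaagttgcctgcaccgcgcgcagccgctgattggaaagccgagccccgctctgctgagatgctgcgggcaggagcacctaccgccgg
Psmb5: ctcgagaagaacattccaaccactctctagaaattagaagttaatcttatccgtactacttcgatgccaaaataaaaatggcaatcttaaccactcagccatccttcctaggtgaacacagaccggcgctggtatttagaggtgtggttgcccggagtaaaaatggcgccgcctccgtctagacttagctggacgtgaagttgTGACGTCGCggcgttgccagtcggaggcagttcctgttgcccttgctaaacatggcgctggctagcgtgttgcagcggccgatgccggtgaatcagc
Psmb6: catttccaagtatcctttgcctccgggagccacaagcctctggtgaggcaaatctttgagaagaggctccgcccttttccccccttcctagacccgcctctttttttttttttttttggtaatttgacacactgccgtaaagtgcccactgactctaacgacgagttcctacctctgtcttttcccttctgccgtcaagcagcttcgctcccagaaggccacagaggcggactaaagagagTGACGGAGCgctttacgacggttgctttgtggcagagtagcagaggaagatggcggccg

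The match in Psmb8 lay at bases -97 to -89 from the start, that in Psmb5 at -47 to -39 and that in Psmb6 at -9 to -1. The Psmb9 window matched neither motif, nor the letters of an interferon-stimulated response element, which were taken as GAAA, any 2 bases and GAAA. It overlapped the start window of Tap1, a neighbour read in the opposite direction, by 275 bases. The Psmb10 window also held none of the 3 motifs, and no window was found for Psmb7. The Psme1 window, chr14:55578244-55578543 on the plus strand, held a match to the interferon-stimulated response element at bases 9 to 18, written TTTCGCTTTC on the gene's strand.

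Windows were available for 43 of the 51 members, and all 3 motifs were searched on both strands. No window of the printed genes held more than 1 of these matches. The interferon-stimulated letters were in 3.44% of all 32851 RefSeq windows and in those of 5 members, Psmb3, Psmd4, Psmd9, Psme1 and Psmg4. The interferon gamma-activated letters were in 8.30% of all windows and in those of Psmb8, Psmd2 and Psmg1. The antioxidant response letters were in 12.39% of all windows and in those of 6 members, Psmb5, Psmb6, Psmc6, Psmd12, Psmd9 and Psme4. These matches describe letters only.

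Total expected counts were 8757280 to 9315370 in the rapamycin libraries and 9712671 to 11393317 in the untreated ones. The mean count of a tested member lay between 29 and 2981, and variance between libraries of a group was 1.58 times counting noise with rapamycin and 1.62 times without treatment. The sum of all members in TPM, the deposited transcript level scaled for length and depth, was 4498, 4441 and 4554 in the rapamycin libraries and 5534, 5529 and 5453 in the untreated ones. All rapamycin libraries thus lay below all untreated ones. In bulk RNA, fewer cells of a type and less RNA per cell cannot be told apart.

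Most proteasome genes were lower after rapamycin. Of 49 members with enough counts to test, 39 were lower and 2 higher at an adjusted p under 0.05 (edgeR's quasi-likelihood test, Benjamini-Hochberg adjustment over all 11950 genes tested), against 23.3% of all tested genes lower and 24.1% higher. The median log2 fold change of the members, rapamycin over untreated, was -0.32, and that of all tested genes was -0.01. Without Psmc3ip, 38 of 48 were lower and 2 higher. The 2 higher members were Psme2b and Psme4. In CPM, counts scaled for library size, the rapamycin libraries lay below the untreated ones without overlap for all 39 lower members. Those members were called from the same counts, so this adds no support. In TPM, 30 members were lower without overlap and 4 higher. The share of all tested genes without overlap was not computed, so no excess among the members can be read from these counts.

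Gene length moved with these changes. Across all tested genes the median log2 fold change was -0.31 in the shortest of 10 equal classes by length and 0.24 in the longest. Tested members had a median length of 1227 bases, against 2366 bases for all tested genes. The 2646 tested genes between 1022 and 1776 bases, the quartiles of the members, had a median log2 fold change of -0.15, and 36.2% of them were lower. After a length correction that removes the trend across all genes, 26 members were lower and 1, Psme2b, was higher, against 18.2% of all tested genes lower and 20.2% higher. All 26 were also lower without the correction, and the members' median was -0.19. Without Psmc3ip 25 were lower. The lower calls lost with the correction were those of Psma3, Psma7, Psmb2 and Psmb3 in the core, Psmc3, Psmc4, Psmc5, Psmd4, Psmd6 and Psmd8 in the 19S regulator, and Psmd10, Psmg3 and Psmg4 among the chaperones. A correction of this kind also removes any real change that goes with length.

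The scale also moved the counts. With limma on log2(TPM + 1), 70.3% of the calls over all genes were higher, against 50.8% in the count test. Of the 11950 genes tested this way, 1151 were lower and 2720 higher. Among the members, 25 were lower and 2, Psme2b and Psme3, higher. On that scale the median of all genes was 0.09 and that of the members -0.26, so that the members lay 0.35 below. The members' median lay 0.31 below that of all genes in the count test and 0.18 below it after length correction.

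**Figure D1:**
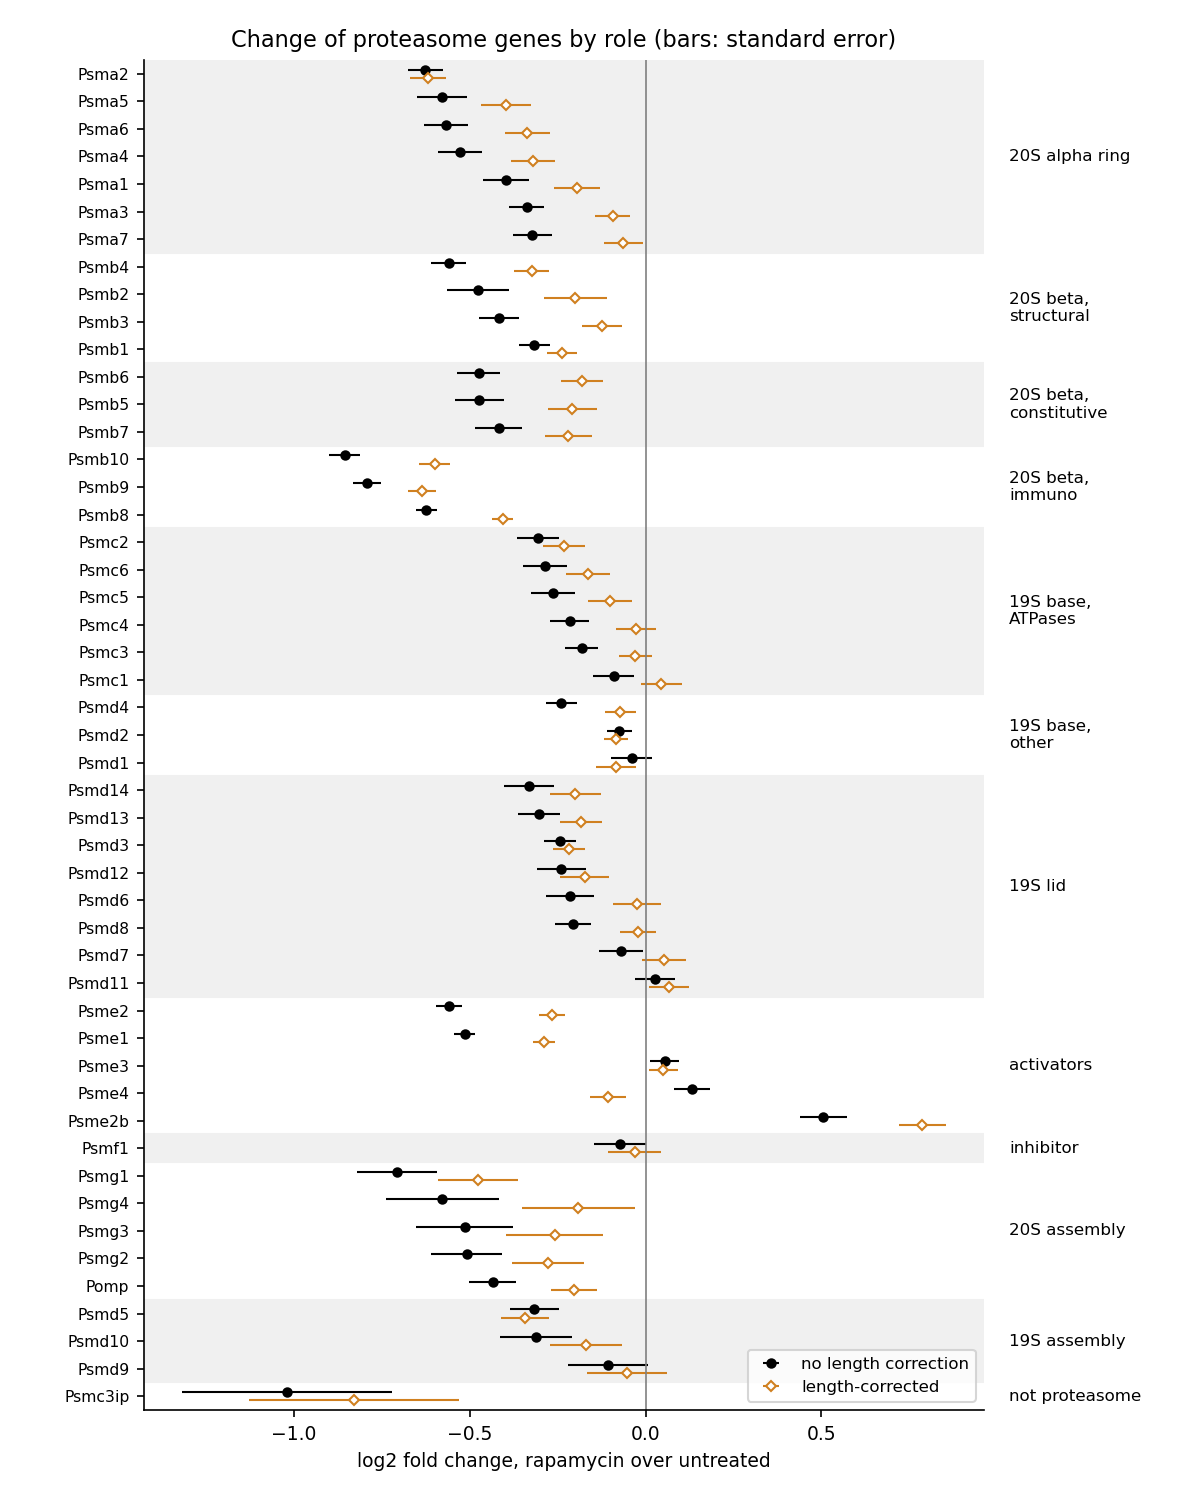
The log2 fold change, rapamycin over untreated, of the 49 tested members is plotted by role, with bars for the standard error. Filled points are the count test and open points the length-corrected one, and the immunoproteasome genes lie lowest among the 20S subunits in the count test, apart from Psma2, which lies level with Psmb8.

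**Figure D2:**
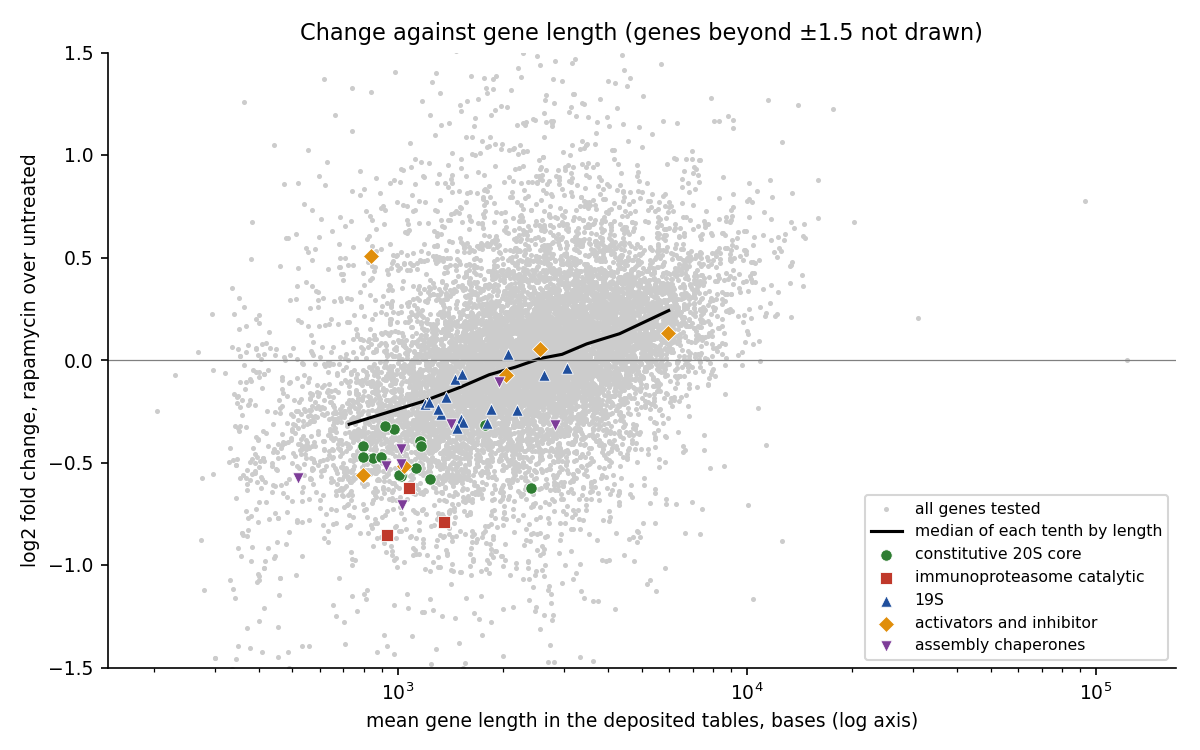
Each grey point is a tested gene, placed by its mean length in bases (log axis) and its log2 fold change, rapamycin over untreated. The black line joins the medians of 10 equal classes by length, from -0.31 to 0.24, and most 20S genes lie below it while the 19S genes lie closer to it.

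The 3 catalytic genes of the immunoproteasome were all lower, with a summed level of 702 ± 19 TPM after rapamycin and 1064 ± 28.3 TPM without treatment (SD, n = 3 each). Psmb8, the chymotrypsin-like immune subunit, was the most abundant member per length in both groups, at 419, 396 and 380.3 TPM in the rapamycin libraries and 578, 564 and 565 TPM in the untreated ones. Its log2 fold change was -0.62 ± 0.03 (SE, adjusted p = 1.2e-26), or 64.9% of the untreated level. The groups did not overlap.

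Psmb9, the immune subunit that replaces Psmb6, measured 122, 138 and 140.2 TPM with rapamycin and 233, 223 and 210.5 TPM without treatment, again without overlap. Its log2 fold change was -0.79 ± 0.04 (SE, adjusted p = 2.5e-25). Psmb10, the trypsin-like immune subunit, measured 182, 160.0 and 169 TPM with rapamycin and 286, 263 and 269 TPM without treatment. The fold change of Psmb10, -0.86 ± 0.04 (SE, adjusted p = 3.5e-25), was the lowest of any proteasome gene in the count test, and its groups were also apart. With length correction the log2 values were -0.41 for Psmb8, -0.63 for Psmb9 and -0.60 for Psmb10, all still lower. On that scale the alpha ring gene Psma2, at -0.62, lay below Psmb10, and the chaperone gene Psmg1, at -0.48, below Psmb8. All 3 immune genes were lower in each of 18 alternative settings. Psmb8, Psmb9, Tap1 and Tap2 sit together in the MHC region of chromosome 17, with Psmb9 at chr17:34181987-34187764 and Psmb8 at chr17:34197721-34201454. Psmb10 lies on chromosome 8. By mean TPM, Psmb9 ranked 10 among the members in treated cells and 5 in untreated ones.

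The constitutive counterparts were lower too, by a smaller log2 fold change. Psmb5 measured 76.6, 87.9 and 87.7 TPM with rapamycin and 111, 100.5 and 110.2 TPM without treatment. Psmb6 measured 121, 136 and 125 TPM with rapamycin and 164, 162 and 162 TPM without treatment. Psmb7 measured 71.2, 60.7 and 75.2 TPM with rapamycin and 86.0, 81.8 and 89.7 TPM without treatment. None of these groups overlapped. The log2 fold changes were -0.47 ± 0.07 for Psmb5, -0.47 ± 0.06 for Psmb6 and -0.42 ± 0.07 for Psmb7 (SE), with adjusted p-values of 5.2e-08, 1.3e-09 and 3.3e-07 by edgeR. With length correction they were -0.21, -0.18 and -0.22, and all 3 genes were still lower.

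**Figure D3:**
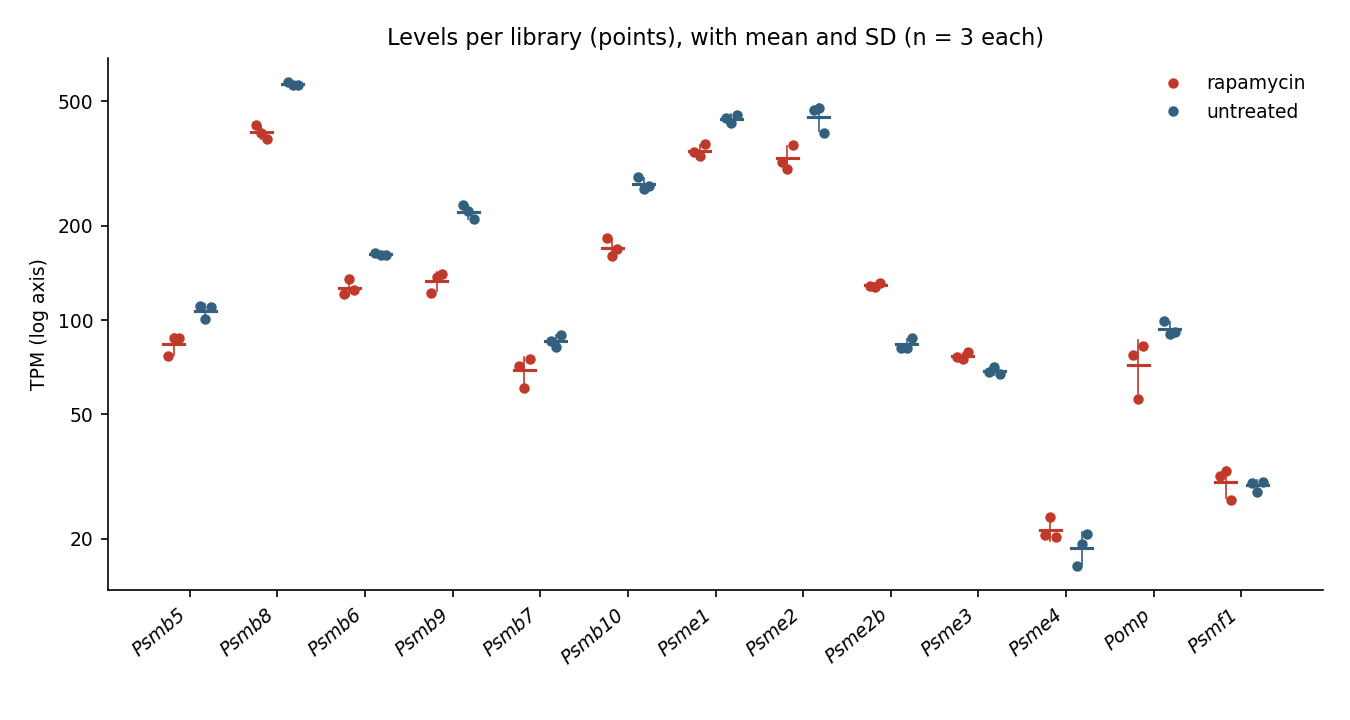
TPM on a log axis for the catalytic genes, the activators, Pomp and Psmf1 in each library, rapamycin to the left of untreated, with mean and SD (n = 3 each). Psmb8, Psmb9 and Psmb10 are lower in every rapamycin library, Psme2b is higher in every one, and the groups of Psme4 and Psmf1 overlap.

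The proportion of immune to constitutive catalytic transcripts was lower after rapamycin when the 3 genes of each kind were summed. The ratio of TPM sums was 2.69, 2.44 and 2.40 in the rapamycin libraries and 3.04, 3.05 and 2.89 in the untreated ones, and the groups did not overlap. The means were 2.51 ± 0.16 with rapamycin and 2.99 ± 0.09 without treatment (SD, n = 3 each), a log2 difference of -0.26. On CPM the ratio was 3.18 with rapamycin and 3.81 without treatment. Immune transcripts outnumbered constitutive ones in every library, in treated as in untreated cells.

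The pairs were also read singly, and differences between pairs were not tested. Psmb9 to Psmb6 was 1.01, 1.02 and 1.12 with rapamycin and 1.42, 1.38 and 1.30 without treatment. Psmb10 to Psmb7 was 2.56, 2.63 and 2.25 with rapamycin and 3.32, 3.21 and 3.0 without treatment. The groups of both pairs stood apart, and the exact two-sided permutation p was 0.1 for each, the smallest that 3 against 3 can give, or 0.15 after adjustment over the 3 pairs. Psmb8 to Psmb5 was 5.47, 4.50 and 4.34 with rapamycin and 5.22, 5.61 and 5.13 without treatment, so the groups overlapped, with an exact permutation p of 0.3. The first rapamycin library had the highest Psmb8 to Psmb5 ratio of its group. As a share of the pair's TPM, Psmb9 held 51.2% ± 1.49 with rapamycin and 57.7% ± 1.04 without treatment (SD, n = 3 each).

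**Figure D4:**
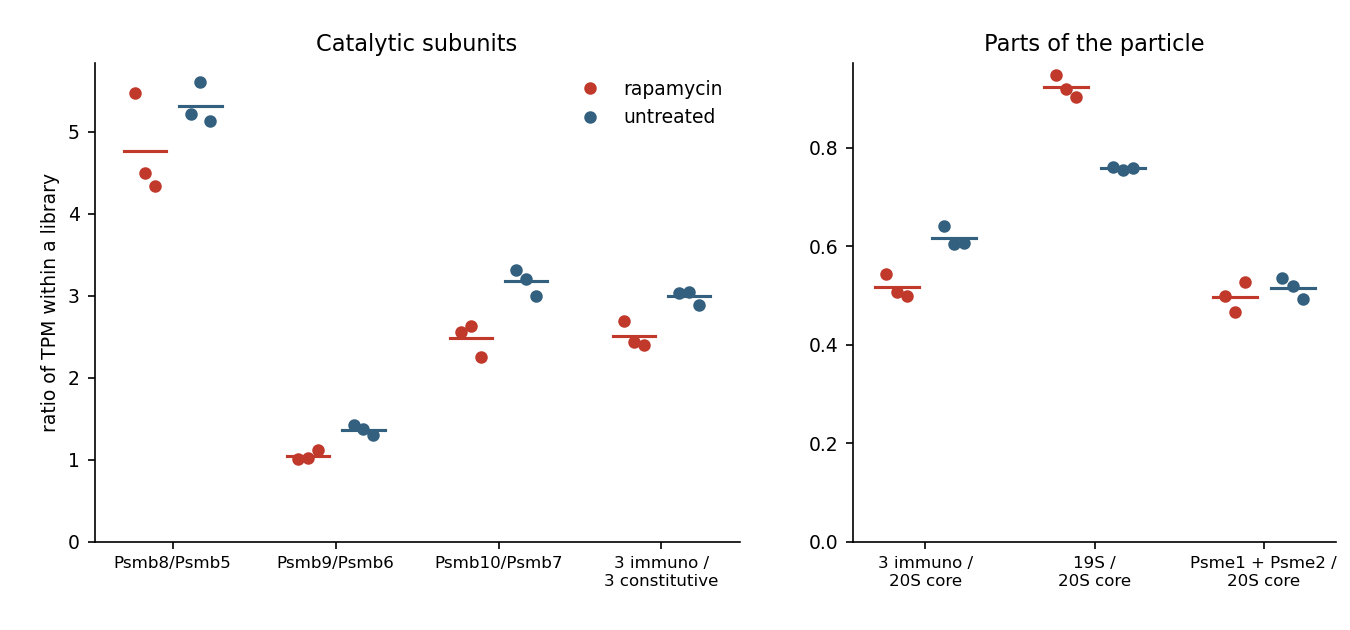
Ratios of TPM within each library, rapamycin to the left of untreated, with bars at the group mean. Psmb9 to Psmb6 and Psmb10 to Psmb7 do not overlap between groups, Psmb8 to Psmb5 does, and the 19S to core ratio is higher in all rapamycin libraries.

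The immune subunits are also expressed by B and myeloid cells, so their markers were read in the same libraries. Summed CPM of 8 myeloid markers ranged from 14.5 to 15.8 with rapamycin and from 45.3 to 51.6 without treatment, and 7 of the 8 were lower. The 6 B and plasma cell markers summed to between 377 and 402 CPM with rapamycin and between 423 and 445 CPM without treatment, with 4 of the 6 lower. The 5 memory and effector T cell markers summed to 42.1 to 46.1 CPM with rapamycin and 56.2 to 62.4 CPM without treatment, while the pair of CD8 markers summed to 88.0 to 91.0 CPM with rapamycin and 19.1 to 20.5 CPM without treatment. No marker in these lists was at 0 in every library. The 6 markers of naive CD4+ T cells summed to 3820 to 3839 CPM with rapamycin and 3663 to 3733 CPM without treatment, and Cd4 and Cd3e were among them. Of these 6, 3 were lower and 2 higher. For comparison, Psmb8 alone averaged 236 CPM with rapamycin and 363 CPM without treatment. Regulatory T cell markers summed to 11.1 to 14.3 CPM with rapamycin and 7.53 to 8.93 CPM without treatment. NK cell markers summed to 48.4 to 53.4 CPM with rapamycin and 55.2 to 58.7 CPM without treatment, with 2 of the 4 tested lower and 1 higher. The part of these other cells in the immunoproteasome difference was not tested.

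The other parts of the core fell as well. All 7 alpha ring genes were lower, with a median log2 fold change of -0.53, and 5 were lower with length correction. Psma2 fell most, to 41.9, 41.7 and 42.9 TPM with rapamycin, against 62.5, 61.7 and 58.4 TPM without treatment (log2 fold change -0.63 ± 0.05, SE, adjusted p = 2.1e-16). Psma7 changed least, at 142, 150.1 and 158 TPM with rapamycin and 193, 169.7 and 171 TPM without treatment, and its log2 fold change of -0.32 became -0.06 with length correction, when it no longer passed the test. The groups of both genes stood apart in TPM. The 4 structural beta genes were all lower, with a median of -0.45, and 2 stayed lower with length correction.

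Psmb4 was the lowest of them, at 161, 170.1 and 135 TPM with rapamycin and 195, 214 and 206 TPM without treatment (log2 fold change -0.56 ± 0.05, SE). Psmb1 was the highest, at 97.3, 99.7 and 96.3 TPM with rapamycin and 108, 115 and 118 TPM without treatment, with a log2 fold change of -0.32 ± 0.04 (SE). Neither gene's groups overlapped. Counting the 3 constitutive catalytic genes, all 14 genes of the constitutive core were lower, and 10 with length correction, and their summed TPM was 1360 ± 25.3 with rapamycin and 1724 ± 14.5 without treatment (SD, n = 3 each). All 14 were also lower with limma on log2(TPM + 1), beside 1151 of all 11950 tested genes.

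The 19S regulator changed less than the core on every scale used. Of its 17 genes, 12 were lower in the count test and 6 with length correction, with medians of -0.22 and -0.08. With limma on log2(TPM + 1) 1 of the 17 was lower, beside 1151 of all 11950 tested genes. The summed TPM of the 17 was 1256 ± 7.87 with rapamycin and 1307 ± 4.89 without treatment (SD, n = 3 each). The 19S to core ratio of TPM sums was 0.95, 0.92 and 0.90 in the rapamycin libraries and 0.76, 0.75 and 0.76 in the untreated ones, without overlap. The core genes are shorter, with a median of 1128 bases in the alpha ring against 1533 bases in the 19S lid, and the part of length in this ratio was not tested.

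Of the 6 ATPases that unfold substrates, 5 were lower. Psmc2 was the lowest, at 49.8, 49.4 and 47.5 TPM with rapamycin and 56.8, 53.5 and 60.7 TPM without treatment (log2 fold change -0.31 ± 0.06, SE). Psmc1 was the highest, at 82.7, 78.1 and 78.2 TPM with rapamycin and 81.9, 88.7 and 85.5 TPM without treatment, and did not pass the test. The Psmc1 groups overlapped. Among the other base genes, only Psmd4, a ubiquitin receptor, was lower, and its value of -0.24 was -0.07 with length correction and no longer passed. The scaffold genes Psmd1 and Psmd2 were not called.

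Of the 8 lid genes, 6 were lower. Psmd14, the deubiquitinase that removes the ubiquitin chain, measured 54.8, 48.6 and 49.3 TPM with rapamycin and 61.0, 68.2 and 52.5 TPM without treatment, with a log2 fold change of -0.33 ± 0.07 (SE) and overlap in TPM. Psmd11 was the highest of the lid, at 55.3, 52.0 and 50 TPM with rapamycin and 44.3, 46.8 and 48.2 TPM without treatment. It did not pass in the count test (log2 fold change 0.03, adjusted p = 0.728), although the TPM groups did not overlap and the rapamycin group was above. With length correction its value was 0.07 (adjusted p = 0.387).

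The activators split. Psme1 and Psme2, the alpha and beta subunits of PA28 that interferon gamma induces, were lower. Psme1 measured 345, 335 and 366 TPM with rapamycin and 444, 426 and 453 TPM without treatment, and Psme2 measured 320.1, 304 and 362 TPM with rapamycin and 471, 476 and 396 TPM without treatment. Groups did not overlap for either gene. The log2 fold changes were -0.51 ± 0.03 and -0.56 ± 0.04 (SE), with adjusted p-values of 8.1e-22 and 9.4e-20 by edgeR, and -0.29 and -0.27 with length correction, both still lower. The genes lie close together on chromosome 14 in opposite directions, Psme1 at chr14:55578123-55581529 and Psme2 at chr14:55587441-55591113. Their sum relative to the constitutive core in TPM was 0.50, 0.47 and 0.53 with rapamycin and 0.54, 0.52 and 0.49 without treatment, with overlap. On CPM this ratio was 0.405 to 0.407 with rapamycin and 0.418 to 0.444 without treatment, without overlap.

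The other caps were not called lower. Psme3, a nuclear activator, measured 76.1, 75 and 78.8 TPM with rapamycin and 68.5, 70.6 and 67.2 TPM without treatment, and did not pass in the count test (log2 fold change 0.05, adjusted p = 0.283). Psme4, the large PA200 activator, measured 20.5, 23.4 and 20.2 TPM with rapamycin and 16.4, 19.2 and 20.8 TPM without treatment. Its log2 fold change was 0.13 ± 0.05 (SE, adjusted p = 0.0287), but -0.11 with length correction (adjusted p = 0.0893), and 7 of 18 alternatives kept the call. Without rapamycin replicate 2, rapamycin replicate 3 or untreated replicate 1 it no longer passed, at 0.12, 0.11 and 0.09. At 5940 bases it is the longest of the members. Psmf1, which encodes the proteasome inhibitor PI31, was not called, at 31.9, 32.8 and 26.5 TPM with rapamycin and 30.2, 28.3 and 30.4 TPM without treatment.

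Psme2b was the only activator gene that was higher in both fits. It measured 128, 128 and 131 TPM with rapamycin and 81.7, 81.6 and 87.5 TPM without treatment, a log2 fold change of 0.50 ± 0.07 (SE, adjusted p = 4.2e-09) that was 0.79 with length correction. It is a near-identical intronless copy of Psme2, on chromosome 11, and how reads common to both copies were counted is uncertain. The expected counts of both genes were whole in all 6 libraries, unlike those of Psmb7, Psmb8 and Psmb9. Psme2b also overlaps 41 bases of 9930111J21Rik1 on the same strand, and that gene had a log2 fold change of 0.91.

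The assembly factors were lower. The 5 chaperones of the core, Pomp and Psmg1 to Psmg4, were all lower in the count test, with a median log2 fold change of -0.51, and 3 of them remained so with length correction. Psmg1 was the lowest, at 22.6, 26.8 and 20.6 TPM with rapamycin and 35.3, 33.8 and 35.6 TPM without treatment (log2 fold change -0.71 ± 0.12, SE). Pomp, the maturation factor consumed as the core is completed, was the highest, at 77.6, 55.9 and 82.9 TPM with rapamycin and 99.7, 90.2 and 91.8 TPM without treatment, with a log2 fold change of -0.44 ± 0.07 (SE). The groups of Psmg1 and Pomp did not overlap in TPM, and those of Psmg4 did. The second rapamycin library had the lowest Pomp level. Psmg4 lost its call without untreated replicate 2, at -0.42. Of the 3 chaperones of the 19S base, Psmd5 and Psmd10 were lower in the count test, and only Psmd5 with length correction, where Psmd10 was at -0.17 (adjusted p = 0.191). Psmd5 was the lowest, at 25.1, 18.0 and 24.9 TPM with rapamycin and 24.9, 28.5 and 27.9 TPM without treatment, with overlap in TPM and a log2 fold change of -0.32 ± 0.07 (SE). Psmd9 measured 11.6, 9.59 and 11.9 TPM with rapamycin and 17.9, 14.7 and 14.6 TPM without treatment, without overlap. It was not called in the count test (log2 fold change -0.11, adjusted p = 0.464) but was lower with limma on log2(TPM + 1) (-0.47, adjusted p = 0.0236) and with effective-length offsets in edgeR (-0.62).

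Members below the filter were the tissue-restricted forms. Psma8, the germ cell alpha subunit, was at 0 in all 6 libraries. Psmb11, the thymic epithelial catalytic subunit, had 1 count in each of 2 rapamycin libraries and 0 in all untreated ones. Psmc3ip was low, at 1.75, 1.24 and 2.67 CPM with rapamycin and 3.90, 4.09 and 3.46 CPM without treatment, with a log2 fold change of -1.02 ± 0.30 (SE, adjusted p = 0.0035).

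Reads of several members could be shared with a neighbour. Psmb7, Psmb8, Psmb9 and Psmc3ip had counts that were not whole in all 6 libraries, and each overlaps a gene on the opposite strand. Psmc3 and Psmd13 overlap such genes too, by 215 and 342 bases, and their counts were whole in all 6 libraries. Psmb9 overlaps 212 bases of Tap1. The library kit keeps strand, but the sources used here do not say whether the counting used it. The processed pseudogenes Psmb5-ps, Psmb6-ps and Psmb6-ps2 were at 0 in every library. A further copy, Psmb7-ps2, had expected counts of 1, 2 and 0 with rapamycin and 0, 0.14 and 0 without treatment.

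Of 24 tested proteasome-associated factors and genes of the NRF1 axis, 4 were lower and 4 higher in the count test. This was a smaller share each way than the 23.3% lower and 24.1% higher of all tested genes. With length correction 4 were lower and 3 higher, beside 18.2% and 20.2% of all tested genes. With limma on log2(TPM + 1) 1 was lower and 7 higher, beside 1151 and 2720 of the 11950 tested genes. Ubr4, a ubiquitin ligase, averaged 905 ± 0.86 CPM with rapamycin and 590 ± 6.40 CPM without treatment (SD, n = 3 each), a log2 fold change of 0.62. With length correction the value of Ubr4 was 0.28, still higher. Sem1, a small lid subunit outside the symbol rule, averaged 34.4 ± 2.01 CPM with rapamycin and 51.3 ± 3.04 CPM without treatment, a log2 fold change of -0.57. Ngly1, which activates NRF1 by removing its sugars, was 0.31 higher on the log2 scale, and Ddi2, its protease, 0.29 higher but -0.01 with length correction. Nfe2l1 itself averaged 100 ± 5.46 CPM with rapamycin and 93.0 ± 3.67 CPM without treatment and did not pass the test (adjusted p = 0.0625).

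Ubiquitin genes and activating enzymes were mixed, with 3 of 6 lower and 2 higher, beside 23.3% and 24.1% of all tested genes. With length correction 2 were lower and 3 higher, beside 18.2% and 20.2% of all tested genes. With limma on log2(TPM + 1) 2 were lower and 3 higher, beside 1151 and 2720 of the 11950 tested genes. Rps27a, which encodes ubiquitin fused to a ribosomal protein, had a log2 fold change of -0.43, and -0.10 with length correction, where it was still lower. The activating enzymes Uba1 and Uba6 had values of -0.12 and 0.42, and Uba6 no longer passed with length correction.

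The genes that carry proteasome products to MHC class I were mostly lower. Of 14, 10 were lower and 3 higher, in the count test and with length correction, but 5 lower and 3 higher with limma on log2(TPM + 1). Of all tested genes 23.3% were lower and 24.1% higher, and with length correction 18.2% and 20.2%. On log2(TPM + 1), 1151 of the 11950 tested genes were lower and 2720 higher. The peptide transporter gene Tap1 averaged 371 ± 8.79 CPM with rapamycin and 499 ± 10.5 CPM without treatment, a log2 fold change of -0.43. The class I light chain B2m averaged 1221 ± 11.8 CPM with rapamycin and 1608 ± 19.1 CPM without treatment, a log2 fold change of -0.40. With length correction the value of Tap1 was -0.46 and that of B2m -0.12, both still lower. Tapbp, which loads peptide, had a value of -0.28, and Tpp2, a peptidase acting after the proteasome, one of 0.42.

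Regulators on the interferon side were called in both directions. All 14 were called, 7 lower and 7 higher, and with length correction 7 were lower and 6 higher. With limma on log2(TPM + 1) 5 were lower, 5 higher and 4 not called. The shares over all tested genes were again 23.3% lower and 24.1% higher, and 18.2% and 20.2% with length correction. On log2(TPM + 1), 1151 of the 11950 tested genes were lower and 2720 higher. Irf1, an activator of Psmb9 and Tap1 transcription, averaged 222 ± 12.6 CPM with rapamycin and 322 ± 2.59 CPM without treatment (SD, n = 3 each). Its log2 fold change was -0.53 ± 0.03 (SE, adjusted p = 1.1e-22 by edgeR), and -0.49 with length correction. The kinase Jak1 and the receptor chain Ifngr1 were higher, at 0.31 and 0.42, and at 0.15 and 0.47 with length correction. The feedback inhibitor Socs1 and the class I activator Nlrc5 were among the lower genes. The higher ones were receptor chains, the kinases Jak1 and Jak2 and the repressor Irf2.

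**Figure D5:**
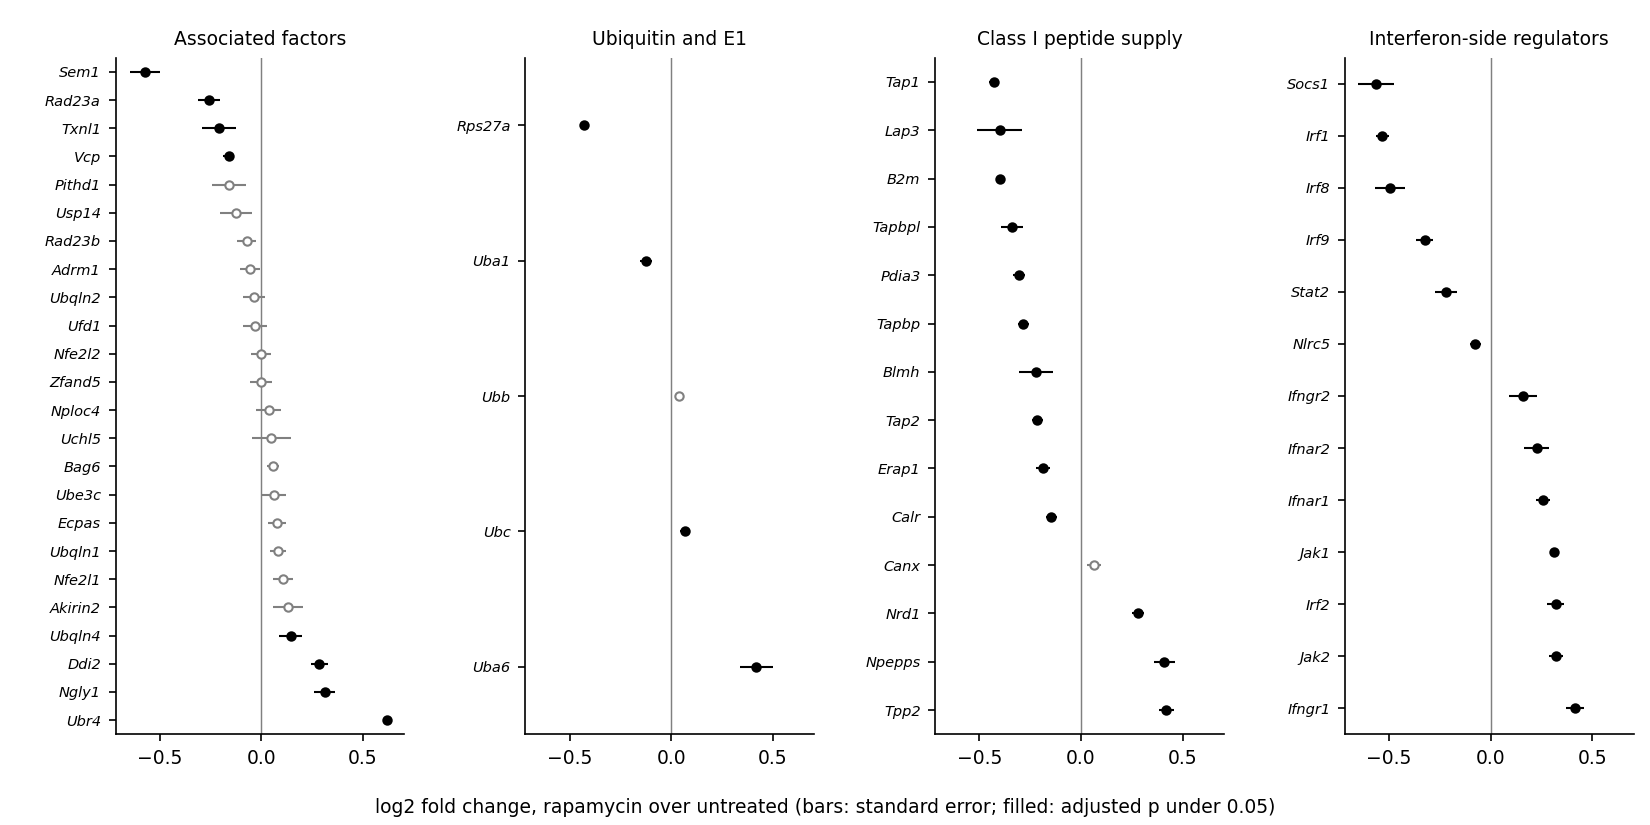
Log2 fold change, rapamycin over untreated, with standard error, for 4 lists of genes that act with or around the proteasome. Filled points passed an adjusted p of 0.05. Irf1 lies at -0.53 in the interferon list, and Ubr4 lies highest in the list of associated factors at 0.62. The drawing leaves out genes that are not reported here.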

How the data were processed

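For 55487 genes each deposited table holds, per the file headers, length, effective length, expected counts from RSEM, TPM and FPKM, and STAR, RSEM and mm10 are named in the submitters' processing notes, with versions not given in the sources used here. The authors' expected counts are estimates that need not be whole, and the authors' TPM and FPKM are scaled for length and depth. Symbols came from GENCODE vM21 on GRCm38, matching 55227 identifiers, and the 260 others took up to 0.013% of the counts in any library. Promoter windows came from RefSeq on GRCm38.p6.

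Expected counts were rounded, filtered with filterByExpr and scaled by TMM, and groups were compared with edgeR 4.0.16 (quasi-likelihood, robust, group as the only term, R 4.3.3), with Benjamini-Hochberg adjustment over 11950 genes and a threshold of 0.05. CPM are counts scaled with the TMM factors. The length correction fitted each library's deviation of log2 CPM on log2 gene length (spline, 5 degrees of freedom, genes whose average log2 CPM was 2 or more) and used it as an offset. TPM was tested with limma 3.58.1 on log2(TPM + 1), and DESeq2 1.42.0 was an alternative. Pair ratios used exact two-sided permutation tests. The procedure was tested on simulated data. Figures used matplotlib 3.10.9.

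Every member was accounted for. Values per library are given for the 6 paired catalytic genes, Psme1, Psme2, Psme4, Pomp, Psmf1 and the lowest and highest member of each other role, and up to 4 called genes per pathway list, of which a few are not reported here, although list counts include them. Members and lists were chosen with earlier results of these data known. Psme2b, Psme3 and Psmc3ip, and pathway genes beyond the first 4, were named after their values were seen.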

Additional observations from a re-analysis of the deposited data

How the results depend on the processing

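The 39 lower members and 2 higher ones were recounted under 18 alternatives. Lower members numbered 25 with limma on log2(TPM + 1) and 24 on log2(TPM + 0.1), and 38 to 39 with each library left out in turn. Higher members numbered 1 with upper-quartile factors, 1 without composition factors, 1 without a filter, 1 with DESeq2, 1 with effective-length offsets, 1 with length correction and 1 to 2 with a library left out. Of the pathway genes, 24 were lower and 16 higher, and with each TPM test 13 were lower and 18 higher. Over all 11950 tested genes, 2785 were lower and 2874 higher in the count test. With log2(TPM + 1), 1151 of them were lower and 2720 higher, and with log2(TPM + 0.1) 1137 and 2700. Psmc3 turned to 0.039 and 0.040 in the TPM tests and Psme4 to -0.11 with length correction, where the cause was not tested. Of 882 recomputed gene values, 59 lost the call and kept their sign, and 9 gained a call. The sign changed in 17 values. Of these, 3 were of called genes and lost the call too. The other 14 were of 6 genes that were not called, Psmc1, Psmd1, Psmd2, Psmd7, Psmd11 and Psmf1. In every alternative, 19 of 41 called members kept their call. With the replicate block, 39 members were lower and 2 higher. Equal numbers did not pair the libraries, as their deviations correlated at -0.106, 0.0456 and -0.0883 over 9972 genes, and not every library correlated best with its own number. Median member counts of 470 to 488 with rapamycin and 663 to 739 without treatment limit precision, and standard errors cover the spread between libraries.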
